A study of Mus musculus with 10 samples.

Results

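Small nucleolar RNAs (snoRNAs) and small Cajal body RNAs (scaRNAs) are described here in wild-type (WT), *Dnttip1* KO and *Elmsan1* KO mouse embryonic stem cells (mESCs). The rows were chosen by name, as those beginning with Snord, Snora or Scarna, and then by measured level. A row was reported where both libraries of at least 1 of the 5 cell lines held 1 FPKM (fragments scaled to gene length and library size) or more. Of the 34591 rows of the deposited table, 122 carried such a name and 79 were reported: 48 of 75 Snord rows, 23 of 38 Snora rows and 8 of 9 Scarna rows. Because these values chose the members, their level is given as a description and is not tested. Of the 79 members, 75 passed in all 5 lines, *Scarna3a* in 4, *Scarna8* in 3, *Snord23* in 2 and *Snord45c* in 1.

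DNTTIP1 and ELMSAN1 are subunits of the histone deacetylase complex MiDAC. The study sequenced ribosome-depleted, strand-specific total RNA from male C57/BL6 Bruce-4 mESCs held in 2iL, a defined medium with LIF and inhibitors of GSK3 and MEK. The 10 libraries comprise 2 of unedited WT cells, 2 from each of D2A7 and D1E6, clones with *Dnttip1* KO, and 2 from each of E2E8 and E2G7, clones with *Elmsan1* KO, all edited with CRISPR/Cas9. Each clone grew from a single sorted cell, so a knockout is represented by 2 clones. The paper describes the 2 libraries of WT and of each clone as biological replicates. Nothing in the labels ties them to separate cultures. The p-values below therefore measure the spread between these libraries.

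SnoRNAs work in the nucleolus as guides. Box C/D snoRNAs (Snord) bind FBL, NOP56 and NOP58 and direct methylation of the ribose in ribosomal RNA, whereas H/ACA snoRNAs (Snora) bind dyskerin and direct the conversion of uridine to pseudouridine. ScaRNAs (Scarna) carry the same boxes and act in Cajal bodies on the small nuclear RNAs of the spliceosome. A few, among them U17 (*Snora73a*, *Snora73b*), U8 (*Snord118*), U13 (*Snord13*) and U14 (*Snord14a*), take part in cutting the ribosomal RNA precursor. In mammals most lie in introns of host genes, many of which encode ribosomal proteins or translation factors, so the sequence is freed when the host transcript is spliced.

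The sequences of 8 members are printed because called differences between lines fall on them or, for *Snora73a*, because it is a near copy of *Snora73b*. They were read from the NCBIM37 genome at the annotated gene, 5′ to 3′ on the strand of the gene. Capitals mark box C (TGATGA, searched in the first 20 bases) and box D (CTGA, searched in the last 20 bases) of Snord and Scarna genes, and the ACA box (ACA, searched in the last 8 bases) of Snora genes. Box C and box D were both found in 28 of the 48 Snord members (58.3%) and in 0 of the 23 Snora members, and ACA in all 23 Snora members against 6 of the 48 Snord members (12.5%). *Snora73b* (chr4:131908237-131908441, minus strand, in an intron of *Rcc1*), *Snora73a* (chr4:131908690-131908894, minus strand, *Rcc1*), *Snora78* (chr17:24856621-24856748, minus strand, *Snhg9*), *Snord17* (chr2:144091715-144091952, minus strand, *Snx5*), *Snord15a* (chr7:106631295-106631442, minus strand, *Rps3*), *Scarna6* (chr1:89681131-89681395, plus strand, *Atg16l1*), *Snord42a* (chr11:77994801-77994865, minus strand, *Rpl23a*) and *Snord8* (chr14:52829460-52829569, minus strand, *Chd8*) read as follows.
Snora73b: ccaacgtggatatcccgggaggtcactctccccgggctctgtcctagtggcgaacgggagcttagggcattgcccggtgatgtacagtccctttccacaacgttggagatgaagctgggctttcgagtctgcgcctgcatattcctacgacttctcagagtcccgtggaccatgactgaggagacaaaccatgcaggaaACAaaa
Snora73a: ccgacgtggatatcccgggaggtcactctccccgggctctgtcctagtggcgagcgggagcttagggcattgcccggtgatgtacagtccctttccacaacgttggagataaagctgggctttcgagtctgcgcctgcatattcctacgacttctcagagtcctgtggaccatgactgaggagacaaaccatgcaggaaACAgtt
Snora78: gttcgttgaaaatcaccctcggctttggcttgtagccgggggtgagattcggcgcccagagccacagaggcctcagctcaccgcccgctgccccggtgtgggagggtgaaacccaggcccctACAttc
Snord17: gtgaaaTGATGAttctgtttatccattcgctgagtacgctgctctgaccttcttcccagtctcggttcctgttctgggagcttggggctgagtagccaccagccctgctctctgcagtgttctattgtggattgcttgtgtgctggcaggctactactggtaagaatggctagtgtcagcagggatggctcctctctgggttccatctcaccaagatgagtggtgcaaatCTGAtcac
Snord15a: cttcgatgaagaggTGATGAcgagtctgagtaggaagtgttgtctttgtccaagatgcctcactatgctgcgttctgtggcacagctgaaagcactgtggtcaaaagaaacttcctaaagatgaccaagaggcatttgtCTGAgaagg
Scarna6: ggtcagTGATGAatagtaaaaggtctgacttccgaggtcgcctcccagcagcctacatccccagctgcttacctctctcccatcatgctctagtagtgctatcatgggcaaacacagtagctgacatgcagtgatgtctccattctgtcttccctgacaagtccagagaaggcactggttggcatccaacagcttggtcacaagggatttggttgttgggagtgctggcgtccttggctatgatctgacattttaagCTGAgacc
Snord42a: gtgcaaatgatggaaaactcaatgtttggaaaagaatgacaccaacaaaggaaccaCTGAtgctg
Snord8: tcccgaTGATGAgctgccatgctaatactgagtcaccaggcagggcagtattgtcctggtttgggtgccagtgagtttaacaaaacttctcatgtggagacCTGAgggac
*Snora73a* and *Snora73b* shared 198 of 205 aligned bases (96.6%), with an identical stretch of 56 bases, so fragments of one could be assigned to the other and the division between both rows is uncertain.

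By the median member, the Cajal body class was the most abundant and the box C/D class the least. The scaled level per gene length, averaged over the 10 libraries, had a median of 123 FPKM over the 8 Scarna members, 16.7 FPKM over the 23 Snora members and 14.1 FPKM over the 48 Snord members. Summed over members, box C/D stood above H/ACA in both D2A7 libraries and in D1E6 replicate 2, and below it in the other libraries. *Scarna10* (U85, which guides modification of U5) was the highest at 930 FPKM and ranged from 530 in a D2A7 library to 1591 in an E2E8 library. *Snora73b* followed at 715 FPKM, *Scarna13* (U93) at 486, *Scarna2* at 308, *Snora74a* (U19) at 183, *Scarna9* at 173 and *Snord104* at 139. These 7 were the only members at a mean of 100 FPKM or more, and 28 members averaged under 10 FPKM. Of all FPKM summed per library, the 79 members took 0.731% to 0.998%, and the 3 highest members held between 38.5% and 56.9% of that.

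**Figure D1:**
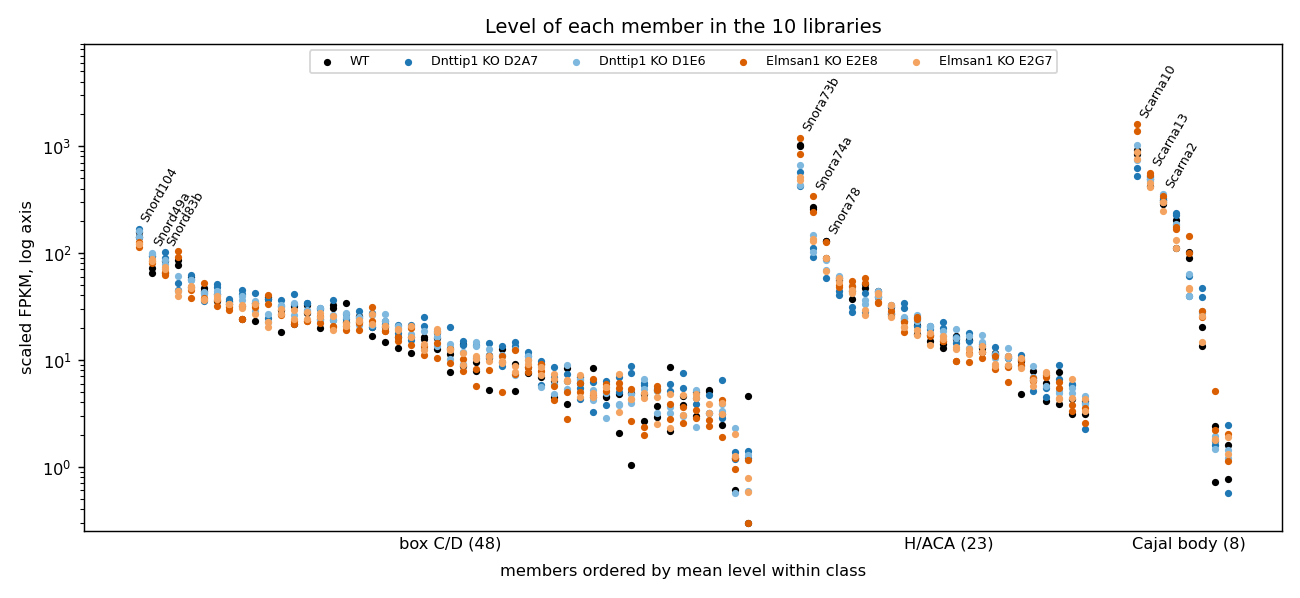
Scaled FPKM of each of the 79 members (log axis) in the 10 libraries, ordered by mean within class; colours mark the line, and a value of 0 is drawn at 0.3. The 3 highest Scarna members and *Snora73b* stand above 200 FPKM in every library, and most Snord members lie between 2 and 100 FPKM.

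The members known to act in precursor cutting spanned a wide range, with *Snora73b* the highest. *Snord14a* averaged 23.6 FPKM (19.0 to 28.7 over the 10 libraries), *Snord13* 9.83 (5.13 to 14.7), *Snora73a* 4.75 (3.09 to 6.54) and *Snord118* 3.92 (2.35 to 5.20). *Snora73a* overlaps an exon of a host gene in part, so its level may be too low, as described next. *Snord22* and *Snord14c*, *Snord14d* and *Snord14e* were listed at 0 in all libraries, as was *Snord116l2*.

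A listed 0 went with the position of the gene. Of the 43 rows not reported, 35 stood at 0 in all 10 libraries (23 Snord and 12 Snora), and 32 of these lie wholly inside an exon of a host gene on the same strand in GENCODE vM1. All 32 rows with that position were at 0, and none of the 79 members has it. Of the members, 3 overlap such an exon in part: *Snora73a*, *Snord42b* and *Snord45c*. The counting tool named in the methods (HTSeq) leaves out by default a fragment that overlaps more than 1 gene. Reads were not recounted, and the methods name another annotation (GENCODE vM20), so the part of this default in the zeros was not tested. The zeros are not taken here to measure absence, and the levels of the 3 members may be too low. Only *Snora35*, in the serotonin receptor gene *Htr2c*, and *Snord116l2* were at 0 and clear of such exons, and *Snord32a* overlaps an exon in part. Just inside the level threshold were *Snord45c* and *Snord23*, whose lower library in their best line held 1.21 and 1.25 FPKM. Just outside were *Snord90* at 0.933 and *Snora5c* at 0.691 FPKM.

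Of the 79 members, 68 lie inside 55 host genes and 11 outside any, among them *Scarna2*, *Scarna13*, *Scarna17*, *Snord13* and *Snord118*. Where several genes contain a member, the gene with the most exon sequence was taken as its host. For *Snora73a* and *Snora73b* this was *Rcc1*, though *Snhg3* contains them too. Ribosomal protein genes make up 17 of the hosts and hold 20 members. The hosts with the most members were *Rpl23a* (*Snord42a*, *Snord42b*, *Snord4a*) and 2410006H16Rik (*Snord49a*, *Snord49b*, *Snord65*), with 3 each. Members of 1 host share a primary transcript and are not independent of each other.

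Depth and identity of the libraries bear on all comparisons. The library totals implied by the steps between FPKM values ran from 31098300 in WT replicate 1 to 86463800 in E2G7 replicate 2. A level of 1 fragment on a gene of 80 bases was worth 0.402 FPKM in the former and 0.145 FPKM in the latter. Members rested on a median of 92 fragments a library, 62.5 for Snord, 136 for Snora and 812 for Scarna genes. All 6 mESC markers looked at were high (*Pou5f1*, *Sox2*, *Nanog*, *Klf4*, *Zfp42*, *Esrrb*; at least 59.3 FPKM in every library), and of 7 markers of primitive endoderm and fibroblasts *Gata6*, *Sox17*, *Col1a1*, *Col1a2* and *Col3a1* stayed at 0.112 FPKM or below, *Gata4* between 0.344 and 0.951 and *Thy1* between 0.0927 and 0.444. *Dnttip1* fell from 8.15 and 8.43 FPKM in WT to 4.57 and 4.56 in D2A7 and 2.59 and 2.63 in D1E6 (deposited values). *Elmsan1*, listed as C130039O16Rik, was at 5.53 and 5.39 FPKM in WT and between 4.62 and 5.18 in its knockout clones, a difference that did not pass the test, and it was called higher in *Dnttip1* KO, at 7.79 to 8.68 FPKM (log2 fold change 0.59, limma adjusted p = 0.00972). RNA was isolated on silica columns, which as background retain short RNAs poorly, so the values describe what remained in the preparation. In these bulk libraries fewer cells with an RNA and less of it per cell cannot be told apart.

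Whether loss of DNTTIP1 changed the level of these RNAs was asked by comparing the 4 *Dnttip1* KO libraries with the 2 WT libraries. By the rule of the study, a member was called where its change reached 1.5-fold with a limma p below 0.01 before adjustment. The H/ACA RNAs *Snora74a*, *Snora73b* and *Snora78*, the box C/D RNA *Snord17* and the scaRNA *Scarna6* fell, and *Scarna17* rose. All 6 calls were lost when libraries of 1 clone were allowed to correlate (estimated correlation 0.704), with limma adjusted p = 0.222 to 0.556. The 5 lower calls among 79 members (6.33%) compare with 3.24% of all 17435 genes tested, and the single higher call (1.27%) with 3.26%. At an adjusted p under 0.05 (Benjamini-Hochberg over all genes) without a fold limit, 8 of 79 members passed, near the 9.47% of all genes that did.

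Of the H/ACA members, 3 of 23 were called lower (13.0%, against 3.24% of all genes) and none higher (against 3.26%). *Snora74a* (U19) stood at 270 and 260 FPKM in WT, 112 and 91.1 in D2A7, and 149 and 103 in D1E6, so that all 4 knockout libraries lay below both WT libraries. Its log2 fold change was -1.24 ± 0.19 (SE; limma adjusted p = 0.0164). *Snora73b* (U17) stood at 1032 and 994 FPKM in WT, 577 and 421 in D2A7, and 659 and 432 in D1E6. It fell by 0.98 ± 0.20 on the log2 scale (limma adjusted p = 0.0359), again without overlap. The near copy *Snora73a* went from 3.09 and 4.33 FPKM in WT to between 4.86 and 5.96 in the knockout libraries and was not called. *Snora73a* overlaps a host exon in part, so fragments may be missing from its row and the contrast between the copies is uncertain. *Snora78* stood at 129 and 130 FPKM in WT and between 57.9 and 89.0 in the 4 knockout libraries, a log2 fold change of -0.80 ± 0.18 (limma adjusted p = 0.0458).

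Of the 48 box C/D members 1 was called lower (2.08%, against 3.24% of all genes) and none higher (against 3.26%). *Snord17*, the longest of them at 238 bases, stood at 77.7 and 85.3 FPKM in WT, 52.4 and 45.1 in D2A7, and 60.3 and 43.6 in D1E6 (log2 fold change -0.70 ± 0.14, limma adjusted p = 0.0340). Most of the other box C/D members differed in the other direction without being called: 34 of 48 had a log2 fold change above 0. The class median was 0.27 on the log2 scale against 0.02 over all genes tested and 0.02 over the H/ACA members. *Snord49a* (65.3 and 72.6 FPKM in WT, between 92.7 and 99.8 in the knockout libraries) and *Snord83b* (65.2 and 83.7 against 78.0 to 101) were abundant examples. Their log2 fold changes of 0.48 and 0.25 stayed under the 1.5-fold limit, and neither was called. At a limma adjusted p under 0.05 without a fold limit, 3 of the 48 passed, *Snord17* among them, against 9.47% of all genes. WT replicate 1, the shallowest library, lay below WT replicate 2 for 31 of the 48, and the class median was 0.17 without WT replicate 1 and 0.32 without WT replicate 2. The part of this library in the shift was not tested further.

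Of the 8 scaRNAs, 1 was called lower and 1 higher (12.5% each, against 3.24% and 3.26% of all genes). *Scarna6* stood at 89.9 and 103 FPKM in WT, 61.2 and 39.1 in D2A7, and 62.8 and 39.9 in D1E6 (log2 fold change -0.96 ± 0.24, limma adjusted p = 0.0576). *Scarna17* stood at 13.5 and 20.2 FPKM in WT, 47.0 and 38.7 in D2A7, and 28.5 and 27.5 in D1E6 (1.06 ± 0.27, limma adjusted p = 0.0617). Both sets of libraries were apart, but *Scarna17* rested on 32 and 61 fragments in WT and its call was lost with voom, the limma model for counts, on the recovered fragments. *Scarna13* and *Scarna2*, of similar or greater length than *Scarna6*, differed from WT by 0.18 and 0.09 in D2A7 and by 0.07 and 0.11 in D1E6 (log2). *Scarna10*, also longer than *Scarna6*, differed by -0.63 in D2A7 and by -0.02 in D1E6.

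The calls also depended on single libraries. For fits without 1 library, here and in the comparisons below, the share of all genes called was not taken. Whether these counts depart from that share was therefore not tested. The lower count was 1 without WT replicate 1, 2 without WT replicate 2, 3 without D1E6 replicate 2 and 8 without D2A7 replicate 1. The higher count rose from 1 to 11 without WT replicate 2 and was 0 without D2A7 replicate 2, 2 without WT replicate 1 or D2A7 replicate 1, and 3 without either D1E6 library.

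**Figure D2:**
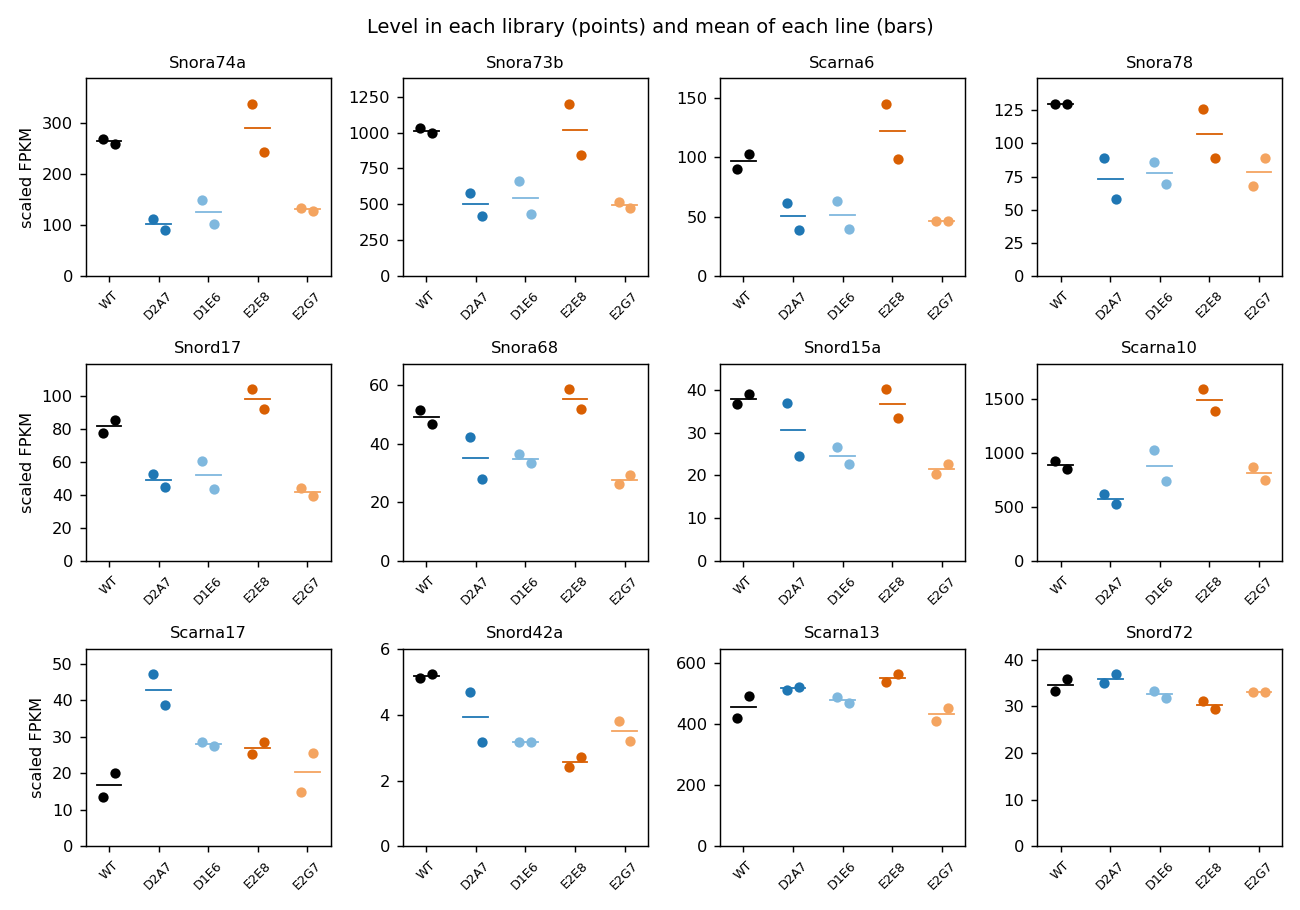
Scaled FPKM (linear axis from 0) of 12 members in each library, as points, with the mean of each line as a bar. *Snora74a*, *Snora73b*, *Scarna6* and *Snord17* are low in D2A7, D1E6 and E2G7 and at or above the WT level in E2E8, whereas *Snord72* stays between 29.3 and 36.8 FPKM.

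The *Elmsan1* KO comparison used the same 2 WT libraries. Only *Snord42a* was called lower (1 of 79, 1.27%, against 3.68% of 17205 genes) and none higher against 2.74% of genes, with 15 of 79 members at an unadjusted p under 0.05 (27.8% of all genes) and 0 higher by voom. *Snord42a*, in an intron of the ribosomal protein gene *Rpl23a*, stood at 5.13 and 5.23 FPKM in WT, 2.42 and 2.73 in E2E8, and 3.82 and 3.20 in E2G7. Its log2 fold change was -0.77 ± 0.18 (limma adjusted p = 0.0468), and the WT values rested on 10 and 13 fragments. The call was lost with voom, with quantile normalization, with an estimated correlation within clones (limma adjusted p = 0.309) and without WT replicate 1 or E2E8 replicate 2. The higher count was 4 without WT replicate 2 and 2 without E2G7 replicate 1, and the lower count 3 without E2G7 replicate 2 and 2 without E2E8 replicate 1. The median log2 fold change was -0.06 over the box C/D members, -0.12 over H/ACA and 0.20 over the scaRNAs, against 0.003 over all genes, and the box C/D median turned to 0.11 without WT replicate 2, to 0.002 without E2E8 replicate 1 and to 0.05 without E2E8 replicate 2.

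Compared directly, the 4 *Dnttip1* KO and the 4 *Elmsan1* KO libraries gave no called member in either direction by limma, against 0.415% of 17600 genes lower and 1.11% higher in *Dnttip1* KO. Voom gave 0 as well, while 29 of 79 members had an unadjusted p under 0.05, against 15.8% of all genes, and 0 an adjusted p under 0.05, against 0.0341%. That fit took the libraries of 1 clone as independent, and their estimated correlation was 0.856. With this correlation in the fit, only *Scarna9*, *Snora41*, *Snord35b*, *Snord49a*, *Snord53* and *Snord100* had an unadjusted limma p under 0.05. The share of all genes in that fit was not taken. The median log2 difference was 0.26 over box C/D, 0.12 over H/ACA and -0.12 over scaRNAs, against 0.01 over all genes. Leaving out 1 library gave 0 to 4 higher calls: 4 without E2G7 replicate 2, 3 without E2G7 replicate 1, 2 without D2A7 replicate 1, 1 without either D1E6 library or either E2E8 library.

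The clones of 1 knockout were compared to see how far the level varied within a genotype. Between E2E8 and E2G7, 7 members were higher in E2E8 (8.86%, against 10.5% of 16727 genes) and 2 were lower (2.53%, against 3.27%). *Snora74a* stood at 338 and 243 FPKM in E2E8 and 134 and 128 in E2G7 (log2 difference 1.13 ± 0.16, limma adjusted p = 0.00480). *Snora73b* stood at 1198 and 842 against 517 and 477 FPKM (1.02 ± 0.17, adjusted p = 0.00857 by limma). *Snord17* stood at 104 and 91.8 against 44.1 and 39.3 (1.23 ± 0.08, limma adjusted p = 9.05e-04), and *Scarna6* at 144 and 98.8 against 46.6 and 46.1 (1.36 ± 0.18, limma adjusted p = 0.00406). E2E8 lay around the WT level for these 4 and E2G7 below it.

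*Snora68* (58.5 and 51.7 FPKM in E2E8 against 26.4 and 29.2 in E2G7), *Snord15a* (40.1 and 33.3 against 20.4 and 22.6, host *Rps3*) and *Scarna10* (1591 and 1387 against 874 and 756, host *Ncapd2*) were the other 3 higher calls, with log2 differences of 0.98, 0.77 and 0.87. *Snord35b* was lower in E2E8, at 1.96 and 2.38 FPKM against 4.43 and 4.92 in E2G7 (-1.08 ± 0.11, limma adjusted p = 0.00219). *Snord110*, in an intron of the box C/D core gene *Nop56*, stood at 14.3 and 10.4 against 18.3 and 19.4 FPKM (-0.62 ± 0.15, limma adjusted p = 0.0240). The lower count was 6 without E2E8 replicate 1, 4 without E2E8 replicate 2, 3 without E2G7 replicate 1 and 1 without E2G7 replicate 2. Of the 48 box C/D members, 38 had a negative log2 difference in this comparison, with a median of -0.16 against 0.05 over all genes.

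Between D2A7 and D1E6, 5 members were higher in D2A7 (6.33%, against 9.2% of 16996 genes) and 1 was lower (1.27%, against 3.73%), and 4 of the 6 stayed below 10 FPKM in all 4 libraries. *Snord8* stood at 7.60 and 5.46 FPKM in D2A7 and 3.00 and 3.02 in D1E6 (log2 difference 1.07 ± 0.16, limma adjusted p = 0.00760). *Snord37* stood at 7.54 and 8.80 against 4.84 and 3.96 (0.88 ± 0.12), *Snord92* at 5.11 and 5.96 against 3.64 and 3.17 (0.68 ± 0.11), and *Scarna17* at 47.0 and 38.7 against 28.5 and 27.5 (0.61 ± 0.10). In the WT libraries *Snord37* spanned 1.04 to 4.90 FPKM and *Snord92* 2.15 to 8.63. *Snora30* passed as well (0.61 ± 0.14), and by voom 2 rather than 5 members were higher. *Snora7a*, in an intron of *Rpl32*, was the lower call, at 27.8 and 31.1 FPKM in D2A7 against 48.9 and 48.3 in D1E6 (-0.72 ± 0.06, limma adjusted p = 0.00153), while WT stood at 44.3 and 36.9 FPKM. Leaving out any 1 library gave 2 or 3 lower calls, 3 of them without D2A7 replicate 2. Among markers of other cells, 1 of 3 of primitive endoderm and 1 of 4 of fibroblasts were called in this comparison. *Gata4* stood at 0.951 and 0.899 FPKM in D2A7 against 0.344 and 0.369 in D1E6, and *Thy1* at 0.315 and 0.444 against 0.155 and 0.176 (deposited values). *Gata6*, *Sox17*, *Col1a1*, *Col1a2* and *Col3a1* did not pass the low-value filter, and the part of such cells in the member differences was not tested.

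Each clone was also set against WT by itself, with the same 2 WT libraries each time, a comparison chosen after the values were seen. D2A7 had 4 members lower (*Scarna10*, *Snora73b*, *Snora74a*, *Snord17*; 5.06%, against 4.77% of genes) and 4 higher (*Scarna17*, *Snora69*, *Snord100*, *Snord88a*; 5.06%, against 9.44%). D1E6 had 4 lower (*Snora74a*, *Snora78*, *Snord15a*, *Snord42a*; 5.06%, against 5.0%) and 1 higher (*Snord82*; 1.27%, against 4.22%). E2E8 had 3 lower (*Snora41*, *Snord19*, *Snord42a*; 3.80%, against 5.24%) and 2 higher (*Scarna10*, *Snord88a*; 2.53%, against 9.31%). E2G7 had 7 lower (*Scarna6*, *Snora68*, *Snora73b*, *Snora74a*, *Snora78*, *Snord15a*, *Snord17*; 8.86%, against 5.84%) and 0 higher (against 3.32%). *Snora74a* differed from WT by -1.39, -1.10 and -1.01 (log2) in D2A7, D1E6 and E2G7 and by 0.12 in E2E8. *Snora73b* differed by -1.04, -0.92 and -1.03 in the same 3 clones and by -0.01 in E2E8. *Scarna6* differed by -0.97, -0.94 and -1.05 and by 0.31, and *Snord17* by -0.74, -0.67 and -0.97 and by 0.26, in the same order.

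**Figure D3:**
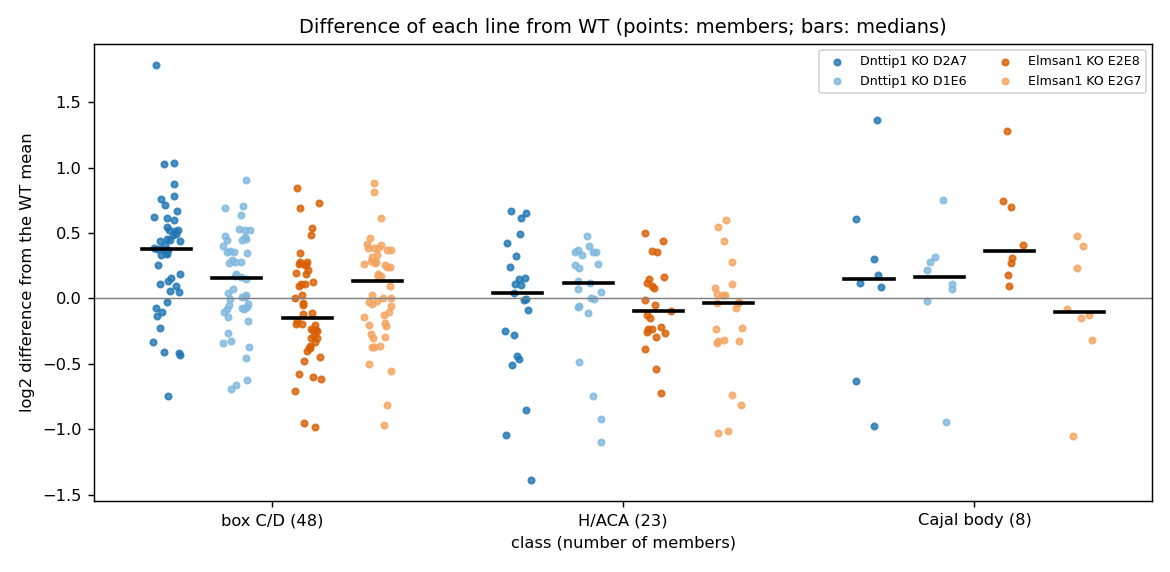
Log2 difference of each clone from the WT mean for the 48 box C/D, 23 H/ACA and 8 Cajal body members (points), with the median as a bar. Box C/D medians run from 0.38 in D2A7 to -0.15 in E2E8, and single H/ACA members reach below -1 in D2A7, D1E6 and E2G7.

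The members called lower in *Dnttip1* KO had gene lengths of 128 to 265 bases, where the median member has 93. By gene length, the 43 members under 100 bases (41 of them Snord) had a median log2 difference from WT of 0.39 in D2A7, 0.19 in D1E6, -0.17 in E2E8 and 0.10 in E2G7. The 27 members of 100 to 150 bases had medians of 0.11, 0.13, -0.05 and 0.02. The 9 members over 150 bases had medians of -0.63, -0.02, 0.12 and -0.23. These 9 were *Snora74a*, *Snora73b*, *Snord17* and *Scarna6*, called lower in *Dnttip1* KO, and *Scarna2*, *Scarna10*, *Scarna13*, *Snora23* and *Snora73a*, not called lower there. Over the 79 members, which share libraries and in part hosts, Spearman's rho between gene length and log2 fold change was -0.32 for *Dnttip1* KO against WT, -0.01 for *Elmsan1* KO against WT, -0.44 between the knockouts, -0.31 for D2A7 against D1E6 and 0.33 for E2E8 against E2G7.

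Of the 13 names listed as other short structured RNAs only *Rnu73b* was in the table, and it was not called. Other short RNAs were therefore taken by gene type. Among 13 rows of at least 10 FPKM with the gene type snRNA or misc_RNA, or named 7SK, U2, U3 or U4atac, and chosen after their values were seen, the median log2 difference from WT was -0.64 in D2A7, -0.62 in D1E6, 0.20 in E2E8 and -0.68 in E2G7. Of the 13, 11 were below the WT mean in D2A7, 12 in D1E6 and 11 in E2G7 against 4 in E2E8. Their summed level per library was 119434 to 142052 FPKM in WT, 70226 to 70863 in D2A7, 69125 to 91119 in D1E6, 154936 to 161256 in E2E8 and 84762 to 86043 in E2G7. The largest parts were AC157822.1 (49124 and 39665 FPKM in WT) and AC099934.1 (45054 and 35611), both of 297 bases. Both differed from WT by nearly the same amounts (log2 -1.15 and -1.15 in D2A7, 0.19 and 0.20 in E2E8). Whether the 13 rows are independent of each other was not tested. RNase_MRP, the RNA of an enzyme that cuts the ribosomal RNA precursor, stood at 20774 and 20392 FPKM in WT, 13594 and 12801 in D2A7, 16330 and 10995 in D1E6, 27387 and 26348 in E2E8, and 12408 and 12884 in E2G7. The row named U3, itself a box C/D snoRNA outside the naming rule, stood at 344 and 484 FPKM in WT, 329 and 208 in D2A7, 274 and 186 in D1E6, 757 and 599 in E2E8, and 197 and 206 in E2G7. U2, which scaRNAs guide, stood at 1517 and 1483 FPKM in WT, 1970 and 1443 in E2E8, and 529 to 774 in D2A7, D1E6 and E2G7. U4atac stood between 10.63 and 15.95 in all libraries. The part of a shift shared by short RNAs of a library in the member differences was not tested.

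**Figure D4:**
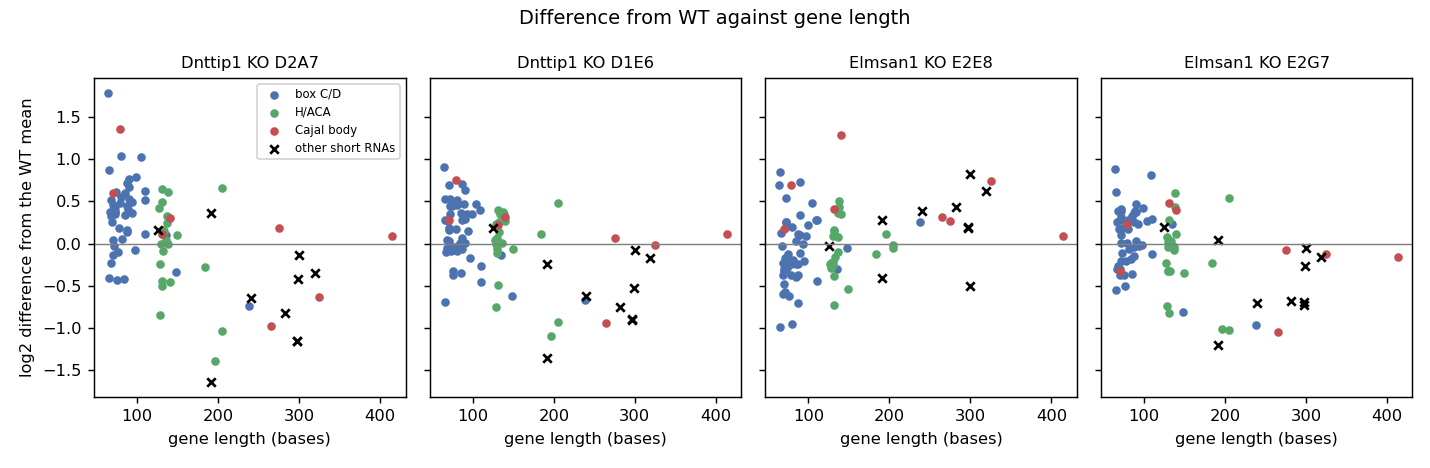
Log2 difference of each clone from the WT mean against gene length in bases, for the members by class and for the other short RNAs with a known length (crosses). Between 190 and 300 bases most points lie below 0 in D2A7, D1E6 and E2G7 and not in E2E8, while the members under 100 bases lie on either side of 0.

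Host transcripts were tested beside their members. Of the 54 hosts tested, which carry 67 members, none was called by limma in *Dnttip1* KO or *Elmsan1* KO against WT or between the knockouts, where 3.24% and 3.26%, 3.68% and 2.74%, and 0.415% and 1.11% of all genes were called lower and higher. For the 5 members lower in *Dnttip1* KO, the log2 fold change of the host was 0.04 for *Snhg4* (*Snora74a*), -0.06 for *Rcc1* (*Snora73b*), 0.33 for *Snhg9* (*Snora78*), 0.03 for *Atg16l1* (*Scarna6*) and -0.05 for *Snx5* (*Snord17*). *Snhg3*, which also contains *Snora73b*, changed by 0.15 and was not called. The only host called between D2A7 and D1E6 was *Snhg9*, higher in D2A7 by 0.72, where 9.2% of all genes were called higher and 3.73% lower. Its *Snora78* stood at 89.0 and 57.9 FPKM in D2A7 and 85.7 and 69.5 in D1E6. The only host called between E2E8 and E2G7 was 2410006H16Rik, higher in E2E8 by 0.77, where 10.5% of all genes were called higher and 3.27% lower. Its *Snord49a* stood at 84.0 and 80.8 against 87.7 and 84.2 FPKM (log2 difference -0.06). *Snord49b* and *Snord65* in the same host differed by 0.15 and -0.16.

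Genes for the proteins that build these particles were listed and tested too. With 0.415% to 10.5% of all genes called per direction and comparison, lists this short would hold few calls or none by the background share alone. None of the 5 box C/D core genes (*Fbl*, *Nop56*, *Nop58*, *Nhp2l1*, *Rrp9*) and none of the 4 H/ACA core genes (*Dkc1*, *Nhp2*, *Nop10*, *Gar1*) was called in any of the 5 comparisons, with median log2 fold changes of -0.05 and -0.13 in *Dnttip1* KO and -0.13 and -0.05 in *Elmsan1* KO against WT. Of 10 assembly genes only *Ruvbl1* was called, lower in D2A7 than in D1E6 by 0.65 (log2). Of 4 Cajal body genes (*Coil*, *Wrap53*, *Smn1*, *Tgs1*), *Coil*, which encodes the scaffold protein coilin, was called. In deposited FPKM it stood at 18.5 and 18.8 in WT, 9.36 and 9.27 in E2E8, and 12.01 and 11.03 in E2G7 (log2 fold change -0.86 ± 0.12, limma adjusted p = 0.0115). In the *Dnttip1* KO clones it stood at 23.6 and 23.3 FPKM in D2A7 and 12.02 and 11.98 in D1E6, and the clones differed by 0.97 (limma adjusted p = 4.43e-04). Of 24 non-coding host names 10 were in the table, and *Snhg11* was called lower in *Dnttip1* KO (2.15 and 2.36 FPKM in WT, 1.37 to 1.63 in the knockout). It was also called between the *Elmsan1* KO clones, at 2.64 and 2.91 FPKM in E2E8 against 1.36 and 1.22 in E2G7 (log2 difference 1.04, limma adjusted p = 0.00147).

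Libraries of a line differed by more for these RNAs than for the median gene. The pooled SD between the 2 libraries of a line, on the log2(FPKM + 0.1) scale, had a median of 0.229 over the 79 members (0.251 for box C/D, 0.190 for H/ACA, 0.306 for scaRNAs) against 0.0778 over the 17870 genes above the low-value filter. Counting error alone, computed from the recovered fragments, gave a median SD of 0.155 for the members, and 62 of the 79 had a larger measured SD, 15 of them by more than 2 times. The excess was greatest where fragments were many. The 7 members of 100 FPKM or more had a median SD of 0.193 against 0.0173 from counting, and 721 genes of that level in the whole table a median of 0.0462.

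*Snora73b* had an SD of 0.292 against 0.0167 from counting, *Scarna10* 0.193 against 0.0118 and *Scarna6* 0.344 against 0.0472. For these 3 the first library of each knockout clone was above the second, as it was in WT for *Scarna10* and *Snora73b*. *Snord72* (29.3 to 36.8 FPKM over all libraries), *Snord49a* and *Snora24* had the lowest SDs, at 0.0528, 0.0555 and 0.0668, all below their counting error. *Snord45c* had the highest, 2.13, with 4.58 FPKM in the first WT library and 0 in the second, followed by *Snord37* at 0.748 and *Scarna8* at 0.744. WT replicate 1 lay below WT replicate 2 for 51 of 79 members, with a median log2 difference of -0.19 (box C/D -0.19, H/ACA -0.06, scaRNAs -0.40) against 0.002 over all genes, and WT replicate 1 was the shallowest library.

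**Figure D5:**
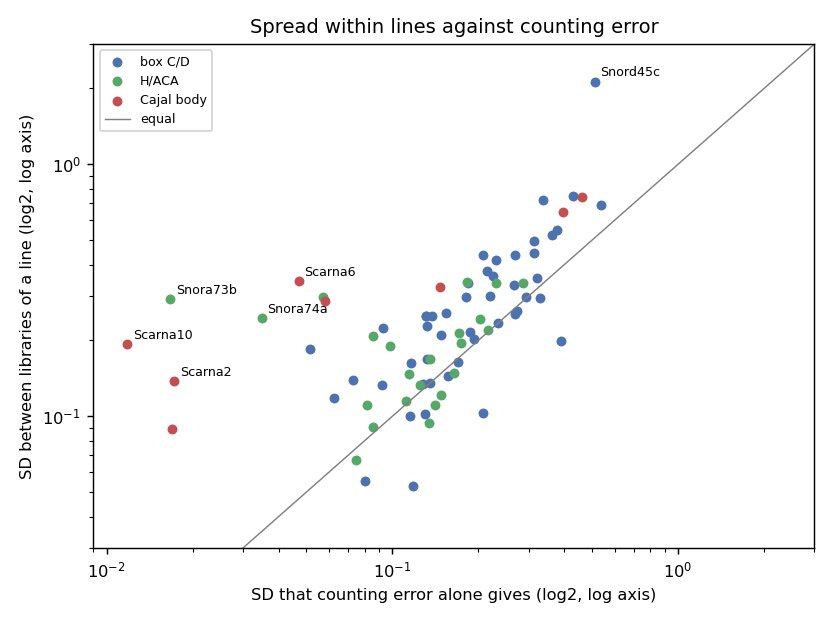
Pooled SD between the libraries of a line (log2, log axis) against the SD that counting error alone gives (log2, log axis), for the 79 members by class, with the line of equality. *Scarna10*, *Snora73b* and *Scarna2* lie farthest above the line, and *Snord72* below it.

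Rows spelled in capitals (SNORD, SNORA, SCARNA) name similar genes that the rule did not take. Of 144 such rows 86 reached the same level, and 86 of the 144 names belong to several loci, so that 1 row stands for more than 1 gene. In *Dnttip1* KO against WT 7 of these 86 were called lower and 2 higher, in *Elmsan1* KO against WT 2 lower and 0 higher, and between E2E8 and E2G7 3 lower and 13 higher. Over all genes the shares called lower and higher were 3.24% and 3.26%, 3.68% and 2.74%, and 3.27% and 10.5% in these comparisons.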

How the data were processed

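Total RNA from 10 mESC libraries was isolated on silica columns and sequenced from both ends after ribosomal RNA depletion, on several Illumina instruments that the labels do not assign to samples. The authors mapped reads to NCBIM37, counted genes with HTSeq and deposited FPKM, fragments scaled to gene length and to library size. The submitters' processing notes name edgeR 3.16.5, limma and R 3.3.1. The methods name GENCODE vM20, but 33606 of 34591 gene identifiers matched vM1, which gave positions and lengths here. From FPKM and vM1 length, 98.3% to 98.6% of the values worth up to 100 fragments came out within 0.05 of a whole fragment.

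Each library was scaled by its median ratio to geometric means of 11270 genes at 1 FPKM or more in all libraries (factors 0.965 to 1.01). The filter kept genes that reached 0.1 FPKM in 2 or more of the libraries compared. Values were log2-transformed after adding 0.1 FPKM, and limma 3.58.1 was run in R 4.3.3 (moderated, variance trend, two-sided, Benjamini-Hochberg adjustment). Fold changes on that scale understate low genes. A call needed a fold change of 1.5 and an unadjusted p under 0.01. On simulated data 197, 197, 200, 190 and 193 of 200 genes changed by a log2 of 1 were called in *Dnttip1* KO and *Elmsan1* KO against WT, between the knockouts, between D2A7 and D1E6 and between E2E8 and E2G7. Of 16886, 16778, 17102, 16649 and 16434 unchanged genes, 68, 57, 30, 70 and 83 were called. The simulated noise was that between libraries of a line, without differences between clones. It therefore does not show how the rule performs where clones differ.

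Members, lists and comparisons were chosen with earlier results of these data known. Named members were those called with groups apart (up to 8 per direction against WT, 4 otherwise), the 5 highest per class, the 3 most and 3 least variable, RNAs known for precursor cutting and those next to the level threshold. *Snora30*, *Snora68*, *Snord15a* and *Scarna10* among the calls between clones, and the members called in single clones, were named beyond that rule. Alternatives changed the pseudocount, filter, scaling, variance model, libraries in the fit, replicate block, count model, call rule and level rule. Python 3.11.15 and matplotlib 3.10.9 were used for tables and figures. Counting error covers sampling of fragments only. Some host genes are not reported here.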

Additional observations from a re-analysis of the deposited data

Results flagged for a closer look

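Between clones of 1 knockout 15 member differences were called, below the shares of all genes: 6.33% against 9.2% higher and 1.27% against 3.73% lower in D2A7 against D1E6, and 8.86% against 10.5% and 2.53% against 3.27% in E2E8 against E2G7. In D2A7 against D1E6 the log2 differences were 1.07 for *Snord8*, 0.88 for *Snord37*, 0.68 for *Snord92*, 0.61 for *Scarna17*, 0.61 for *Snora30* and -0.72 for *Snora7a*. In E2E8 against E2G7 they were 1.36 for *Scarna6*, 1.23 for *Snord17*, 1.13 for *Snora74a*, 1.02 for *Snora73b*, 0.98 for *Snora68*, 0.87 for *Scarna10*, 0.77 for *Snord15a*, -0.62 for *Snord110* and -1.08 for *Snord35b*. Of the 5 members lower in *Dnttip1* KO than in WT, *Scarna6*, *Snord17*, *Snora74a* and *Snora73b* are among those that separate the *Elmsan1* KO clones.

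Among the 4 libraries of each knockout, 1 library stood apart from the other 3 in 2 of the 58 groups looked at (29 members in each knockout), where chance gives about 1 in 20. *Snord42a* reached 4.70 FPKM in a D2A7 library, above the other 3 *Dnttip1* KO libraries at 3.17 to 3.18. *Snord87* reached 62.1 FPKM in a D2A7 library, with the other 3 between 55.7 and 56.6.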

How the results depend on the processing

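The counts of called members were small, so that 1 or 2 members move them past 1.5 times. Beyond the main fits and those of single clones, the share of all genes called was not taken. The counts under other fits are therefore not set against it. In *Dnttip1* KO against WT the 5 lower calls became 2 with all 10 libraries in a single fit, 0 with a correlation within lines and 12 with names in capitals counted too, and 1 to 8 with 1 library left out. The single higher call became 3 on FPKM as deposited, 3 with names in capitals, 4 with the D2A7 libraries only (an alternative added after seeing the data), and 0 without a variance trend, with a correlation within lines, with the replicate block, with voom and at an adjusted p under 0.05, and 0 to 11 with 1 library left out. In *Elmsan1* KO against WT the single lower call became 0 with quantile normalization, a correlation within lines, the replicate block, voom or a level rule of 5 FPKM, 3 with names in capitals, and, in alternatives added after seeing the data, 3 with the E2E8 and 7 with the E2G7 libraries only. It was 0 to 3 with 1 library left out. The higher count of 0 became 2 with the E2E8 libraries only and 0 to 4 with 1 library left out. Between the knockouts names in capitals gave 1 lower and 3 higher calls, the level rule of 0.5 FPKM gave 1 higher, and leaving out 1 library gave 0 lower and 0 to 4 higher.

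In D2A7 against D1E6 the 5 higher calls became 3 with a pseudocount of 1, 1 with all 10 libraries, 2 with voom and 10 with names in capitals, and 4 to 5 with 1 library left out. The single lower call became 2 with the replicate block, voom or the adjusted p rule, and 2 to 3 with 1 library left out. In E2E8 against E2G7 the 2 lower calls became 1 with a pseudocount of 0.01, no filter, FPKM as deposited, no variance trend, all 10 libraries or the replicate block, 5 with names in capitals, and 1 to 6 with 1 library left out. The 7 higher calls became 20 with names in capitals and 6 to 10 with 1 library left out. The cause of these shifts was not tested, other than that names in capitals add 86 rows. Over the 22 called fold changes, none changed sign. The call was kept 196 times and lost 45 times under the other settings, and kept 70 times and lost 32 times with 1 library left out. Over all genes above the low-value filter, replicate numbers did not pair the libraries (correlations of deviations between lines from -0.039 to 0.067). Replicate 1 was higher for 28 of 79 members in WT, 42 in D2A7, 50 in D1E6, 45 in E2E8 and 38 in E2G7. Among these, *Snora73b*, *Snora74a* and *Scarna10* were higher in replicate 1 of all 5 lines. The median SD within lines of 0.229 became 0.211 with a pseudocount of 1 and 0.233 on FPKM as deposited. Depth limits the 28 members averaging under 10 FPKM, whose median SD was 0.347 with 0.289 from counting alone.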
